A study of Mus musculus with 12 samples.

Results

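The genes described here were the muscle ubiquitin ligases Fbxo32, Trim63, Trim54 and Trim55 and the FoxO transcription factors Foxo1, Foxo3 and Foxo4, 7 of the 20775 genes listed in each of 2 RNA-seq tables. They were chosen by name from their known roles with the measured differences between knockout and Ctrl in both tables already in view. Their knockout and Ctrl values are therefore given as a description, without p-values. All 7 were listed in both tables and passed the filter of a mean RPKM (reads scaled to gene length and library size) above 1 at both stages.

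The first table held hearts of E10.5 embryos, 3 Med30 f/f; Tnnt-Cre+ samples (cKO) and 3 Cre-negative Med30 f/f samples (Ctrl, named wild type in the labels). The Tnnt promoter drives Cre in cardiomyocytes, and the heart also holds cells in which Med30 is not deleted. The second table held cardiomyocytes isolated by collagenase perfusion from adult mice of about 3 months of age, 4 weeks after tamoxifen. These were 3 Med30 f/f; αMHC-MerCreMer samples (icKO) and 3 Med30 f/f samples without MerCreMer (Ctrl), all on a C57BL/6 background and all given tamoxifen. Cre was absent from both Ctrl groups, and its own effect on these RNA values and that of losing Med30 cannot be told apart. The paper reports that tamoxifen caused neither deaths nor heart dysfunction in αMHC-MerCreMer mice that lacked a floxed allele. No such group is among these samples. Nothing in the labels says whether a sample was 1 heart or a pool, and p-values measure the spread between these samples, which may be technical. In bulk RNA, fewer cells of a type and less RNA per cell cannot be told apart.

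Muscle breaks down its contractile proteins largely through the ubiquitin-proteasome system, in which an E3 ligase recognises a substrate and passes ubiquitin to it. Fbxo32 encodes atrogin-1, the substrate-binding F-box subunit of an SCF ligase. Trim63, Trim55 and Trim54 encode the RING-finger proteins MuRF1, MuRF2 and MuRF3, which bind sarcomeric proteins and microtubules. FoxO factors are held in the cytoplasm when Akt phosphorylates them under insulin and IGF signalling. In the nucleus they switch on genes of proteolysis, autophagy and metabolism, and Fbxo32 and Trim63 are their best known targets in wasting muscle.

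Med30, the targeted gene, was at 10.6, 13.3 and 11.3 RPKM in the E10.5 Ctrl samples and at 1.38, 2.02 and 1.004 RPKM in the cKO samples. In adult cardiomyocytes it was at 7.66, 7.45 and 7.66 RPKM in Ctrl and at 3.81, 3.16 and 1.83 RPKM in icKO. The knockout samples lay below all Ctrl samples at both stages (log2 fold change -2.96, limma adjusted p = 0.000367, and -1.40, adjusted p = 0.000403). Estimated depth was 12000000 to 20000000 reads a sample, and the members' values rested on about 42 (Trim54) to 4725 (Fbxo32) reads. The skeletal muscle markers Myod1, Myog, Myf5, Pax7 and Myh4 summed to at most 0.17 RPKM in any sample.

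The level of the typical gene differed between knockout and Ctrl in the deposited values. The 20 most abundant genes held 24.2% to 24.8% of the summed RPKM in adult Ctrl samples and 10.7% to 12.2% in icKO. With values taken as deposited, the log2 fold changes of all tested genes had a median of 0.57 at 4 weeks (9517 genes) and -0.13 at E10.5 (10885 genes). After median-ratio scaling, which sets the typical gene of each sample level, these medians were 0.01 and -0.01. Each member's difference is therefore given as deposited and after that scaling.

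Fbxo32 (atrogin-1, GRCm38 chr15:58175879-58214932, minus strand, 9 exons) had the largest difference from Ctrl of the 7 members in the embryo. It was at 9.12, 10.53 and 10.1 RPKM in E10.5 Ctrl and at 4.09, 3.12 and 4.23 RPKM in cKO. The cKO samples were all under the lowest Ctrl sample, and the cKO mean was 38.5% of the Ctrl mean (3.82 ± 0.605 against 9.90 ± 0.717 RPKM, SD, n = 3). The log2 fold change was -1.36 ± 0.147 (SE), or -1.24 after median-ratio scaling. It was the 1 member of 7 past the call thresholds at E10.5, an adjusted p under 0.05 over all genes and a log2 fold change beyond 1 in either direction. Of all genes tested at E10.5, 0.542% were called lower and 0.239% higher, or 0.377% and 0.322% after median-ratio scaling. The rule drew on this contrast, so nothing is read from the members' count.

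In adult cardiomyocytes Fbxo32 was at 47.0, 38.6 and 33.9 RPKM in Ctrl and at 22.3, 20.5 and 21.5 RPKM in icKO. The groups again did not overlap, and the icKO mean was 53.8% of the Ctrl mean (21.4 ± 0.896 against 39.8 ± 6.62 RPKM, SD, n = 3). The log2 fold change was -0.88 ± 0.118 as deposited, inside the fold threshold, and -1.44 after median-ratio scaling, past it. The 3 icKO samples lay within 1.79 RPKM of one another, while the Ctrl samples spanned 13.1 RPKM. Of the 50-base stretches of the Fbxo32 transcript, 2.57% occur in other genes, most of them in the antisense gene Gm15943.

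Trim63 (MuRF1, chr4:134315120-134329629, plus strand, 9 exons) had the largest difference from Ctrl of the 4 ligases in the adult. It was at 88.3, 90.3 and 75.4 RPKM in Ctrl cardiomyocytes and at 33.4, 40.0 and 44.8 RPKM in icKO. The highest icKO sample was well below the lowest Ctrl sample, and the icKO mean was 46.5% of the Ctrl mean (39.4 ± 5.72 against 84.7 ± 8.11 RPKM, SD, n = 3). The log2 fold change was -1.11 ± 0.119 as deposited and -1.67 after median-ratio scaling. Without icKO replicate 1 it was -0.99, short of the fold threshold.

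At E10.5 the Trim63 groups overlapped. Ctrl hearts had 18.6, 12.9 and 16.0 RPKM and cKO hearts 11.9, 8.76 and 15.8 RPKM, and the third cKO sample lay among the Ctrl samples. It differed by a log2 fold change of -0.40 ± 0.209, and -0.28 after median-ratio scaling. It moved between -0.61 and -0.19 when single samples were left out.

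Promoter windows, taken as the 250 bases before the annotated start, were found in RefSeq (GRCm38.p6) for Trim63, Trim54, Foxo1 and Foxo3, 4 of the 7 members. The windows of the ligases Trim63 and Trim54 are shown because these MuRF genes differed most between the adult groups and the embryonic groups, respectively. Both strands were searched for GTAAACA (the FoxO site), TATAAA (the TATA box), CAGCTG (an E-box), TGACGT (a CRE core) and CTAAAAATA (a MEF2 core), and the matches are in capitals. The Trim63 window lies at chr4:134314870-134315119, plus strand, and that of Trim54 at chr5:31116362-31116611, plus strand.
Trim63: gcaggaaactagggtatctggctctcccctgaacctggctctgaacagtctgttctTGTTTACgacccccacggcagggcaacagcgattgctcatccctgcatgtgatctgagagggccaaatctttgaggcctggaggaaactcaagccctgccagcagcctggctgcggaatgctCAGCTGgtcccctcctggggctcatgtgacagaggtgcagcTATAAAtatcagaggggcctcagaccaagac
Trim54: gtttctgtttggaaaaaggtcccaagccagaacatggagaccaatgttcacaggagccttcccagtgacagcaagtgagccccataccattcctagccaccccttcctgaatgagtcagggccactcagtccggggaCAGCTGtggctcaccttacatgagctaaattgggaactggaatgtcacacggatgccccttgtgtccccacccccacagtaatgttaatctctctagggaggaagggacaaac
In the Trim63 window the first capitals are the FoxO site read on the opposite strand, starting 194 bases before the transcript, followed by the E-box at 72 bases and the TATA box at 31 bases before it. The Trim54 window held the E-box alone, 113 bases before the RefSeq start. That start lies upstream of the gene start given below for Trim54 (chr5:31116712), and the bases between them were not searched. Among all 32851 promoter windows of this length, 3.17% held the FoxO letters, 12.4% the TATA box, 13.0% the E-box, 6.47% the CRE core and 0.469% the MEF2 core. None of the 5 motifs matched in the windows of Foxo1 and Foxo3. Those windows held 20 and 31 CG dinucleotides, against 4 for Trim63 and 2 for Trim54. A match is a run of letters and not a shown binding site.

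Trim54 (MuRF3, chr5:31116712-31137630, plus strand, 9 exons) was the lowest member in E10.5 Ctrl hearts and the highest in adult Ctrl cardiomyocytes. At E10.5 it was at 3.92, 1.85 and 2.47 RPKM in Ctrl and at 3.84, 4.94 and 4.66 RPKM in cKO. The first Ctrl sample lay just above the lowest cKO sample, so the groups overlapped, although every cKO sample was above the Ctrl mean (log2 fold change 0.74 ± 0.247, and 0.86 after median-ratio scaling). Of the 50-base stretches of the Trim54 transcript, 19.1% also occur in Gm15469, an antisense gene, and since the strand used in counting is not given in the sources used here, reads of the pair cannot be told apart. The MuRF genes shared no such stretch with one another, nor did the FoxO genes.

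In adult cardiomyocytes Trim54 was at 96.5, 85.0 and 83.0 RPKM in Ctrl and at 64.3, 84.0 and 76.6 RPKM in icKO. The second icKO sample lay above the lowest Ctrl sample. This was a log2 fold change of -0.24 ± 0.11 as deposited and -0.80 after median-ratio scaling.

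Trim55 (MuRF2, chr3:19644474-19692421, plus strand, 10 exons) was the most abundant member in the embryo. E10.5 Ctrl hearts had 79.8, 62.7 and 71.0 RPKM and cKO hearts 49.5, 43.8 and 71.2 RPKM, with the third cKO sample again among the Ctrl samples. On the log2 scale the difference was -0.40 ± 0.181, and -0.28 after median-ratio scaling. In the adult, Ctrl samples had 24.4, 24.6 and 25.3 RPKM and icKO samples 24.1, 28.5 and 26.0 RPKM. These groups overlapped, and the sign of the difference turned with the scaling, from 0.08 ± 0.0852 as deposited to -0.48 after median-ratio scaling, -0.42 after quantile normalization and -0.16 when the 20 most abundant genes were left out of the scaling.

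**Figure D1:**
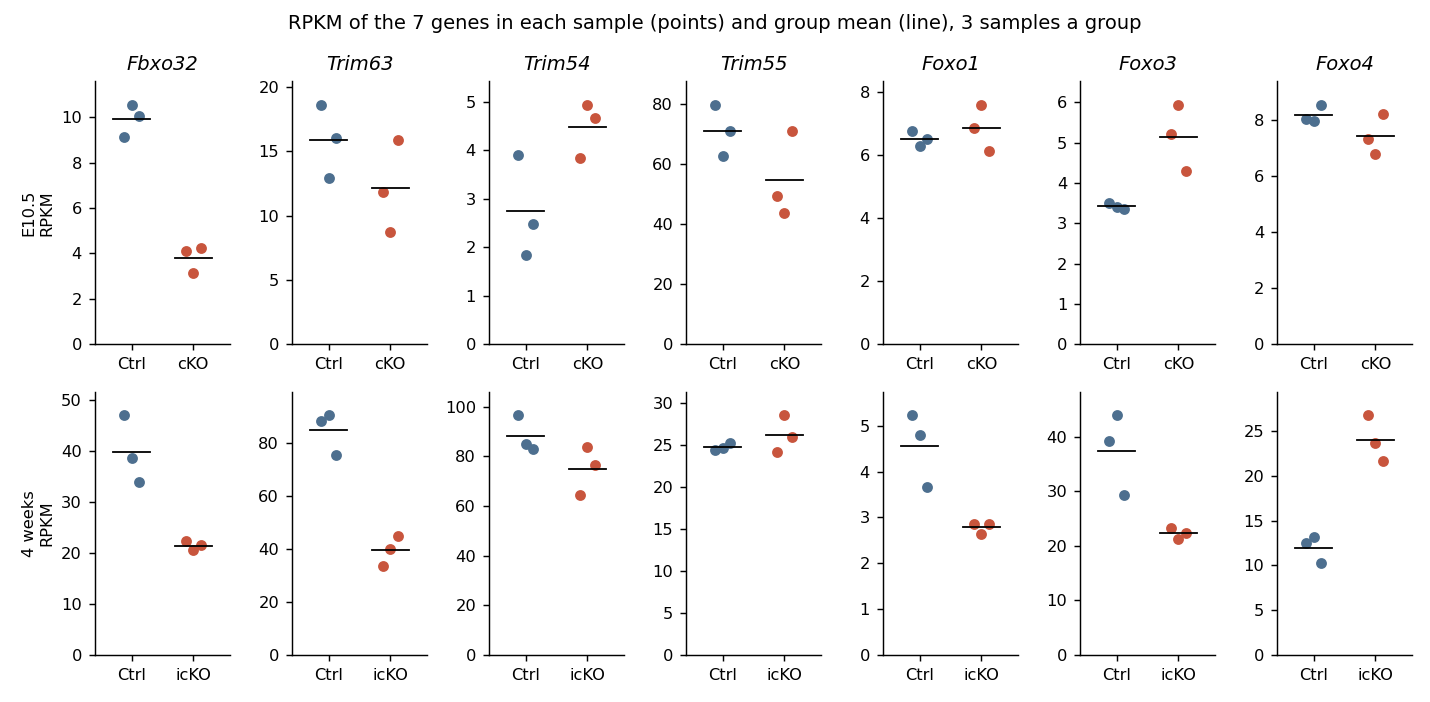
RPKM (vertical axes, from 0) of the 4 ligases and 3 FoxO factors in each E10.5 heart sample (upper row) and each adult cardiomyocyte sample 4 weeks after tamoxifen (lower row), with Ctrl in blue, knockout in red and group means as lines, n = 3 a group. Knockout and Ctrl points are apart for Fbxo32 at both stages, for Foxo3 in opposite directions, and for Trim63, Foxo1 and Foxo4 in the adult.

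Foxo1 (chr3:52268336-52353221, plus strand, 3 exons), which in heart and liver links insulin signalling to metabolic genes, lay close to Ctrl in the embryo. It was at 6.76, 6.29 and 6.52 RPKM in E10.5 Ctrl and at 6.86, 7.59 and 6.12 RPKM in cKO. The cKO samples spread around the Ctrl samples (log2 fold change 0.07 ± 0.125, or 0.19 after median-ratio scaling), and without cKO replicate 2 the value was -0.01.

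In adult cardiomyocytes Foxo1 was at 5.23, 4.79 and 3.67 RPKM in Ctrl and at 2.87, 2.64 and 2.86 RPKM in icKO. All icKO samples lay below all Ctrl samples. The icKO mean was 61.1% of the Ctrl mean (2.79 ± 0.131 against 4.56 ± 0.804 RPKM, SD, n = 3), a log2 fold change of -0.68 ± 0.148 as deposited and -1.23 after median-ratio scaling. In Foxo1, 6.8% of the 50-base stretches occur in other genes, nearly all in the antisense gene Gm20402.

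Foxo3 (chr10:42181841-42276755, minus strand, 4 exons), the FoxO factor best known for driving atrophy genes, differed from Ctrl in opposite directions in the 2 tables. At E10.5 it was at 3.49, 3.41 and 3.36 RPKM in Ctrl and at 5.21, 5.93 and 4.29 RPKM in cKO. The lowest cKO sample was above the highest Ctrl sample, and the cKO mean was 150% of the Ctrl mean (5.15 ± 0.822 against 3.42 ± 0.0683 RPKM, SD, n = 3). On the log2 scale knockout minus Ctrl came to 0.56 ± 0.152, and 0.68 after median-ratio scaling.

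In adult cardiomyocytes Foxo3 was at 39.2, 43.9 and 29.2 RPKM in Ctrl and at 23.2, 21.3 and 22.3 RPKM in icKO. The icKO samples lay below all Ctrl samples, with a mean 59.5% of the Ctrl mean (22.3 ± 0.931 against 37.4 ± 7.48 RPKM, SD, n = 3). As a log2 fold change this was -0.73 ± 0.139 as deposited and -1.29 after median-ratio scaling. The tables were normalised separately, so the difference between the stages was not tested.

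Foxo4 (chrX:101254528-101260873, plus strand, 3 exons) was the 1 member that was higher in adult icKO with no overlap. It was at 12.48, 13.1 and 10.3 RPKM in Ctrl and at 26.7, 23.6 and 21.7 RPKM in icKO. Every icKO sample lay above every Ctrl sample, and the icKO mean was 201% of the Ctrl mean (24.0 ± 2.55 against 11.9 ± 1.50 RPKM, SD, n = 3). It differed by a log2 fold change of 1.004 ± 0.119 as deposited, at the fold threshold, and 0.44 after median-ratio scaling, short of it. The call was lost without Ctrl replicate 3 (0.90) and without icKO replicate 1 (0.92).

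At E10.5 Foxo4 was at 8.03, 7.93 and 8.52 RPKM in Ctrl and at 7.31, 6.78 and 8.19 RPKM in cKO. The third cKO sample lay among the Ctrl samples (log2 fold change -0.14 ± 0.119, and -0.02 after median-ratio scaling). With the 20 most abundant genes left out of the scaling the value was 0.03, so its sign was not fixed.

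**Figure D2:**
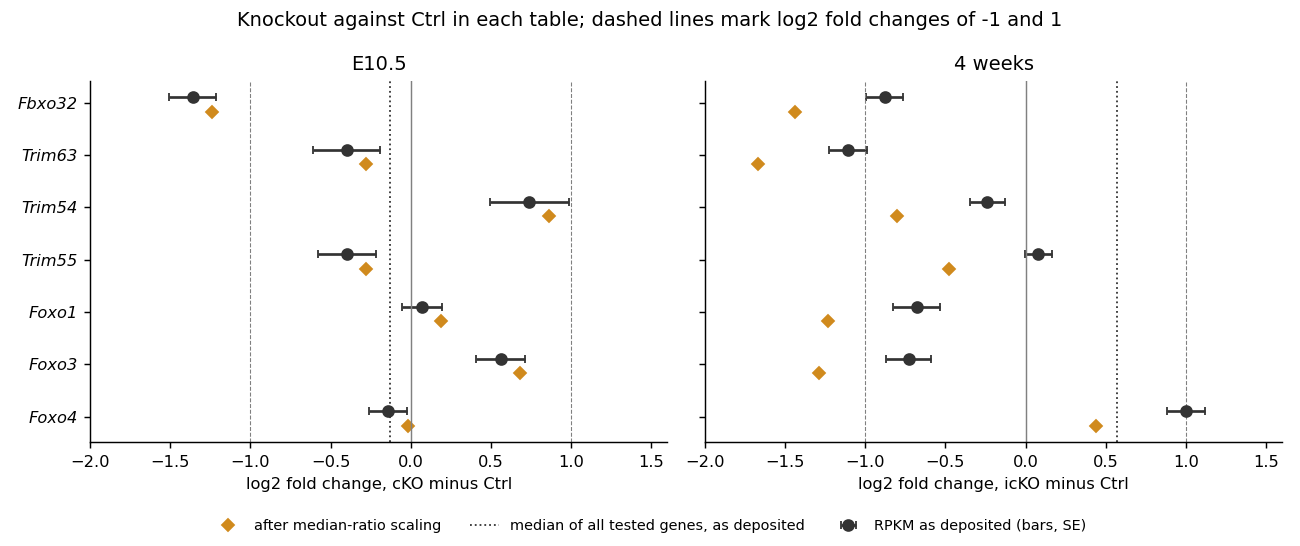
Log2 fold change of knockout against Ctrl (horizontal axes) for each ligase and FoxO factor at E10.5 (left) and 4 weeks after tamoxifen (right), as deposited (circles with SE bars, 3 samples a group) and after median-ratio scaling (diamonds). The dotted line is the median of all tested genes as deposited, -0.13 at E10.5 and 0.57 at 4 weeks, and the diamonds of the adult lie to the left of the circles by about that median.

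Counted over the members, 1 of 7 was called lower at E10.5 and none higher. At 4 weeks 1 was called lower (Trim63) and 1 higher (Foxo4) as deposited, where 8.45% of all tested genes were called lower and 28.0% higher. After median-ratio scaling 4 were called lower (Fbxo32, Trim63, Foxo1 and Foxo3) and none higher, where 15.9% of all genes were called lower and 11.1% higher. The knockout samples lay below all Ctrl samples for 1 member at E10.5 and above them for 1, where 22.6% and 6.5% of all genes did so. At 4 weeks they lay below for 4 members and above for 1, where 18.9% and 62.0% of all genes did so. These shares give the background and support nothing about the members, which were picked on the same values. The members' median log2 fold change was -0.14 at E10.5 and -0.68 at 4 weeks as deposited, and -0.02 and -1.23 after median-ratio scaling.

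Shares within a sample do not depend on a scaling factor applied to the whole sample. In E10.5 Ctrl hearts Trim55 made up 79.4% ± 1.45 of the summed RPKM of the 3 MuRF genes, Trim63 17.6% ± 0.794 and Trim54 2.99% ± 0.748 (SD, n = 3). In cKO hearts the shares were 76.6% ± 0.964, 16.9% ± 1.54 and 6.52% ± 1.83. The Trim54 share was 5.08% to 8.58% in cKO and 2.39% to 3.83% in Ctrl, so it did not overlap, whereas the ratio of Trim63 to Trim55 was 0.221 in both groups (SD 0.0137 in Ctrl and 0.0198 in cKO). Trim63 and Trim55 thus stood in the same proportion to each other in both embryonic groups.

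Adult Ctrl cardiomyocytes had another MuRF composition. Trim54 held 44.6% ± 1.87, Trim63 42.8% ± 2.16 and Trim55 12.6% ± 1.08 of the sum (SD, n = 3). In icKO the Trim63 share was 28.0% ± 2.16, that of Trim54 53.3% ± 1.61 and that of Trim55 18.7% ± 1.10. None of the 3 shares overlapped between the groups, with Trim63 lower and the others higher. The shares of a sample add up to the whole, so a lower Trim63 share by itself means higher shares for the others together. The levels of those genes overlapped between the groups. Mean Trim54 was 88.2 RPKM in Ctrl and 75.0 RPKM in icKO, and mean Trim55 24.8 and 26.2 RPKM. The ratio of Trim63 to Trim55 was 3.42 ± 0.385 in Ctrl and 1.50 ± 0.19 in icKO. The summed MuRF level was 198 ± 12.9 RPKM in Ctrl and 141 ± 16.4 RPKM in icKO.

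Among the FoxO factors of E10.5 Ctrl hearts, Foxo4 held 45.1% ± 1.20, Foxo1 36.0% ± 0.85 and Foxo3 18.9% ± 0.529 of the summed RPKM (SD, n = 3). In cKO the Foxo3 share was 26.4% ± 3.08, from 23.1% to 29.2%, above the Ctrl range of 18.3% to 19.3%. The ratio of Foxo3 to Foxo1 was 0.525 ± 0.0151 in Ctrl and 0.748 ± 0.0414 in cKO. In adult Ctrl cardiomyocytes Foxo3 held 69.2% ± 1.67, Foxo4 22.3% ± 1.35 and Foxo1 8.48% ± 0.71. In icKO Foxo3 and Foxo4 were near parity, at 45.4% ± 1.93 and 48.9% ± 2.31, and the ratio of Foxo3 to Foxo4 was 0.933 ± 0.0851 against 3.11 ± 0.249 in Ctrl. The ratio of Foxo3 to Foxo1 overlapped between the adult groups, at 8.21 ± 0.852 in Ctrl and 7.99 ± 0.169 in icKO. The FoxO sum overlapped as well, at 53.9 ± 9.66 RPKM in Ctrl and 49.1 ± 3.24 RPKM in icKO.

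**Figure D3:**
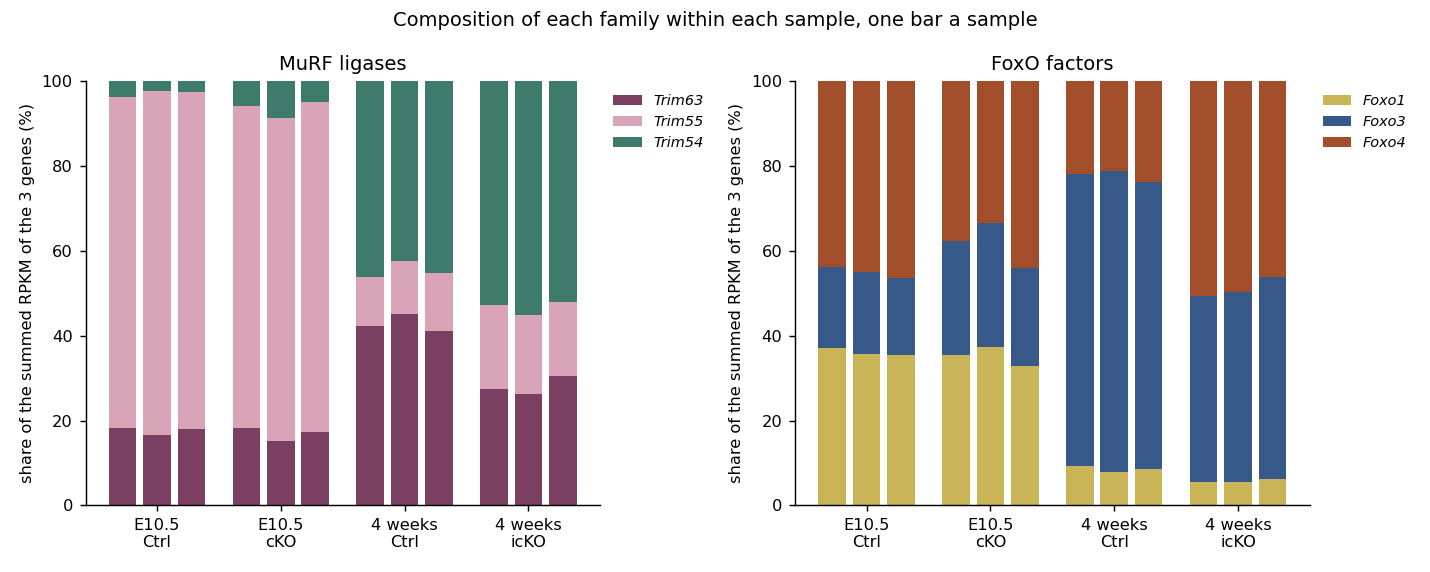
Share (vertical axes, % of the summed RPKM of the 3 genes) of each MuRF ligase (left) and each FoxO factor (right) in each of the 12 samples, 1 bar a sample. Trim55 fills most of the embryonic MuRF bars, Trim54 and Trim63 the adult ones, and Foxo4 takes about as large a share as Foxo3 in icKO.

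The classic atrophy ligases were also compared as a ratio within each sample. Fbxo32 over Trim63 was 0.645 ± 0.163 in E10.5 Ctrl and 0.323 ± 0.0485 in cKO, without overlap (0.491 to 0.815 against 0.267 to 0.356). In the adult it was 0.47 ± 0.055 in Ctrl and 0.553 ± 0.0999 in icKO, with overlap. Fbxo32 over Foxo3 was 2.90 ± 0.253 in E10.5 Ctrl and 0.766 ± 0.231 in cKO. In adult icKO that ratio was 0.962, 0.962 and 0.965 in the 3 samples, within the Ctrl range of 0.88 to 1.20.

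Ordered by mean RPKM, E10.5 Ctrl hearts ran from Trim55 through Trim63, Fbxo32, Foxo4, Foxo1 and Foxo3 to Trim54, and only Foxo3 and Trim54 overlapped as neighbours. In cKO hearts Fbxo32 stood last, overlapping with Trim54, which overlapped with Foxo3, and Foxo4 and Foxo1 overlapped too. Adult Ctrl cardiomyocytes ran from Trim54 through Trim63, Fbxo32, Foxo3, Trim55 and Foxo4 to Foxo1, with overlap of Trim54 and Trim63 and of Fbxo32 and Foxo3. In icKO the order was Trim54, Trim63, Trim55, Foxo4, Foxo3, Fbxo32 and Foxo1, and the run from Trim55 to Fbxo32 overlapped from each gene to the next. Among tested genes, Trim54 stood at the 19.0th percentile of levels in E10.5 Ctrl and at the 96.5th in adult Ctrl, Foxo3 at the 25.1st and the 91.3rd, and Trim55 at the 96.9th and the 86.7th.

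Markers of cell types moved beside these values. The 8 cardiomyocyte markers summed to 7030 to 10200 RPKM in E10.5 Ctrl and 4930 to 6120 RPKM in cKO, with none of 8 called and a median log2 fold change of -0.42 (from -1.08 for Myl2 to 0.04 for Actn2). Beside them, Fbxo32 was at -1.36 and Trim63 and Trim55 at -0.40. The erythroid sum ranged from 241 to 787 RPKM in Ctrl and from 381 to 2260 RPKM in cKO. In adult icKO 5 of 8 cardiomyocyte markers were called lower (median -1.12, from -3.34 for Myh6 to 1.11 for Myl7). The 8 summed to 9040 to 11600 RPKM against 24000 to 25400 RPKM in Ctrl. The upper end of that range, Myl7, was a low gene, with a mean of 0.471 RPKM in adult Ctrl and 2.74 RPKM in icKO. Fbxo32 was at -0.88 and Trim63 at -1.11 in the adult. The members' values were in view when they were chosen, so no contrast with the markers is read from them at either stage. The 9 fibroblast markers summed to 60.8 to 87.8 RPKM in icKO and 5.14 to 8.67 RPKM in Ctrl, with 5 called higher and none at 0, and 2 of 3 tested macrophage markers, out of 7, were called higher (sums of 6.72 to 9.59 RPKM in icKO and 2.83 to 4.51 RPKM in Ctrl). There 2 of 4 tested mural and 1 of 7 tested endothelial markers were also called higher, with summed levels that overlapped between the groups. At E10.5 the mural sum was 438 to 518 RPKM in cKO and 359 to 393 RPKM in Ctrl with none called, and the macrophage sum 4.98 to 6.82 against 8.75 to 11.5 RPKM with 1 of 2 tested markers, Lyz2, called lower. The part of these cell types in the ligase and FoxO values was not tested.

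Likeness of pattern was measured over the 12 samples as the root mean square difference of log2(RPKM + 0.1), each gene centred on the Ctrl mean of its stage, among 8909 genes tested at both stages. Nearest to Fbxo32 were Irx4 (0.173), Rwdd2b (0.266) and U2af1l4 (0.283). The median difference over all genes was 1.01, which the nearest genes fall below by construction. Irx4, a ventricular transcription factor, had log2 fold changes of -1.32 at E10.5 and -0.80 at 4 weeks. Nearest to Trim63 were Ndufaf5 (0.117), Sirt3 (0.128) and Ccdc12 (0.128), of which Ndufaf5 and Sirt3 encode mitochondrial proteins. Nearest to Foxo1 were Gramd1a (0.112), Esrra (0.126) and Zfp275 (0.126), and nearest to Foxo3 were H6pd (0.139), Fam214a (0.165) and Arhgap26 (0.186). H6pd was at 0.62 at E10.5 and -0.82 at 4 weeks. Centring on Ctrl makes this measure follow the knockout differences, which were in view when the members were chosen. Nothing further is read from the likeness.

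The genes that work with these ligases and factors were taken as 217 genes in 8 lists. At E10.5 201 of them were tested, and limma called none lower and none higher. At an unadjusted p under 0.05, 49 were lower and 5 higher, and at an adjusted p under 0.05 without the fold threshold 9 were lower and 1 was higher (10 of 201, beside 470 of all 10885 genes). As deposited, 7467 of all 10885 genes were below 0, and their unadjusted counts are not given here. The balance of 49 to 5 is therefore not read as particular to the lists. The unadjusted counts moved with the scaling and were 27 lower and 19 higher after median-ratio scaling, 23 and 23 after quantile normalization and 20 and 26 with the 20 most abundant genes left out of the scaling. The adjusted counts were then 6 and 2, 6 and 3, and 4 and 5, and they were 0 and 0 without the RPKM filter or without the trend. Among the 10 genes were Bnip3, a mitophagy receptor and FoxO target (17.8 ± 3.79 RPKM in Ctrl and 9.52 ± 2.45 in cKO, log2 fold change -0.91, adjusted p = 0.0398 by limma), Fbxo21, another F-box gene (-0.44, adjusted p = 0.0457), and Mdm2, a ligase for p53 (0.66, adjusted p = 0.0265). Without cKO replicate 3 the calls were 1 lower (Bnip3) and 1 higher (Sesn2), and without Ctrl replicate 1, Ctrl replicate 3, cKO replicate 1 or cKO replicate 2 no related gene had an adjusted p under 0.05. The median log2 fold change of the lists ran from -0.26 (the SCF core and the proteasome) to 0.00 (insulin, IGF and kinase inputs), beside -0.13 for all genes.

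At 4 weeks 206 related genes were tested, of which 21 (10.2%) were called lower and 66 (32.0%) higher as deposited, and 31 (15%) and 13 (6.31%) after median-ratio scaling. The shares of all genes were 8.45% and 28.0%, and 15.9% and 11.1% after that scaling. The paper reports more adult genes down than up, which is the balance after median-ratio scaling and the reverse of that as deposited. Rises given below as deposited are to be read with that in mind. In the SCF core, the ligase scaffold that atrogin-1 plugs into, 3 of 11 genes rose as deposited (27.3%, near the share of all genes) and 0 were called after median-ratio scaling. Skp1a, the adaptor that binds F-box proteins, was at 53.9 ± 1.22 RPKM in Ctrl and 143 ± 11.4 in icKO (log2 fold change 1.41, adjusted p = 8.71e-07 by limma, 0.84 after median-ratio scaling). Cand1 (1.46) and Cops5 (1.09), which regulate the cullin scaffold, rose as deposited as well. Cul1 was at 0.98 and Rbx1 at 0.18 on the log2 scale as deposited. Of 42 proteasome genes tested, 22 rose (52.4%) and 1 fell as deposited, and 4 (9.52%) and 1 were called after median-ratio scaling. Psmd8, a subunit of the regulatory particle, rose under both (2.63 and 2.06, adjusted p = 8.11e-08), as did Psmd13 (1.82 and 1.25), Psma5 (1.73 and 1.17) and Nfe2l1, the transcription factor that induces proteasome genes (1.70 and 1.13), while Psme1, a subunit of the immune-type activator, fell (-1.17 and -1.73). Of 24 ubiquitin and conjugating genes 9 rose as deposited (37.5%), and 3 rose and 1 fell after median-ratio scaling. Ubb, a polyubiquitin gene, rose from 55.6 ± 6.48 to 214 ± 10.3 RPKM (1.94 and 1.38, adjusted p = 4.94e-07), and the conjugating enzyme genes Ube2e2 (1.74 and 1.20) and Ube2g2 (1.65 and 1.08) rose under both scalings, while Nedd8, whose product activates cullins, rose as deposited (1.49, and 0.93 after median-ratio scaling).

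Among 31 other E3 ligase genes of striated muscle tested at 4 weeks, 7 fell (22.6%) and 5 rose (16.1%) as deposited, and 9 (29.0%) and 0 were called after median-ratio scaling. The fallen genes included the F-box genes Fbxl22 (8.12 ± 1.07 RPKM in Ctrl and 1.90 ± 0.257 in icKO, log2 fold change -2.04, adjusted p = 2.64e-06 by limma), Fbxo31 (-2.53) and Fbxo21 (-1.31), and the ankyrin-repeat ligase genes Asb15 (-3.17) and Asb2 (-2.26). Fbxo30, a ligase gene also linked to muscle loss, rose as deposited (1.51, and 0.95 after median-ratio scaling), with Klhl41 (1.48), Fbxw11 (1.44) and Mdm2 (1.35). Fbxo25, the closest relative of Fbxo32, was at 0.76 and 0.21, while Fbxo40, a muscle F-box gene, was at -0.50 and -1.07, the latter called. The list's median was -0.06, beside 0.57 for all genes, and the medians of the SCF core and the proteasome were 0.93 and 1.05. Fbxo32 and Trim63 were at -0.88 and -1.11. These values were in view when the members were chosen, so no contrast with the lists is read from them.

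Of 25 insulin, IGF and kinase genes upstream of FoxO, 8 rose (32.0%) and 1 fell (4.0%) as deposited, and 3 rose and 3 fell (12% each) after median-ratio scaling. Of all genes 28.0% rose and 8.45% fell as deposited, and 11.1% and 15.9% after that scaling. Igf1r, the IGF receptor, rose from 3.83 ± 0.143 to 15.6 ± 1.96 RPKM (1.99, and 1.43 after median-ratio scaling, adjusted p = 8.93e-07 by limma), and Pik3cb, a catalytic PI3-kinase subunit, by 2.54, Ikbkb by 1.63 and Pdpk1, the kinase that activates Akt, by 1.51 (0.95 after median-ratio scaling, not called). Pik3r1, the regulatory PI3-kinase subunit, fell by 2.70 on the log2 scale (51.4 ± 12.8 against 7.65 ± 0.185 RPKM, adjusted p = 9.06e-07). Akt1 was at 0.03 (adjusted p = 0.797), and Akt2 (0.40) and Insr (0.32) had adjusted p-values of 0.000942 and 0.00426 without reaching the fold threshold, and all 3 were below 0 after median-ratio scaling. Of 25 FoxO relatives, partners and cofactors tested, 9 rose (36.0%) and 2 fell (8.0%) as deposited, and 0 rose and 2 fell after median-ratio scaling. Those that rose included Ywhaz (1.48), Ywhaq (1.31) and Ywhah (1.22), which encode 14-3-3 proteins that bind phosphorylated FoxO, and Ctnnb1 (1.31), which encodes β-catenin. The coactivator Ppargc1a fell by 1.90 (adjusted p = 9.58e-07), and Klf15, a factor that acts on the same ligase promoters with the glucocorticoid receptor, was at -1.001 with its call kept in 2 of 6 fits that left out a sample. The glucocorticoid receptor gene Nr3c1 was at 0.53 as deposited and -0.03 after median-ratio scaling, and Mef2c at -0.18 and -0.74. Foxo6, the fourth FoxO gene, had means of 0.191 to 0.847 RPKM over the 4 groups and was not tested.

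Of 32 known FoxO targets and autophagy genes tested at 4 weeks, 4 fell (12.5%) and 7 rose (21.9%) as deposited, and 8 fell (25%) and 2 rose (6.25%) after median-ratio scaling. Those that fell were Txnip (314 ± 52.6 against 38.5 ± 3.56 RPKM, log2 fold change -3.01, adjusted p = 2.68e-07 by limma), Pdk4 (-2.38), Sesn1 (-1.89) and Sod2 (-1.04), genes of glucose use, stress sensing and antioxidant defence. Becn1 (2.11), which starts autophagosome formation, and the lysosomal protease gene Ctsl (1.94) rose under both scalings, and Gabarapl1 (1.15, and 0.58 after median-ratio scaling) and the sestrin genes Sesn2 (1.48 and 0.95) and Sesn3 (1.38 and 0.83) as deposited. Map1lc3b, the autophagosome marker LC3, was at 0.57 as deposited and 0.00 after median-ratio scaling. The list's median was 0.46, beside 0.57 for all genes.

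Of 16 known substrates and titin-kinase partners tested, 6 fell (37.5%) and 3 rose (18.8%) at 4 weeks, and 7 (43.8%) and 1 were called after median-ratio scaling. Tcap, the titin cap, fell from 918 ± 29.4 to 162 ± 45.8 RPKM (-2.54, adjusted p = 1.98e-06 by limma), with Myh6 (-3.34), Jun (-2.30) and Ppara (-2.28), while Vim (2.21), Des (1.29) and Srf (1.11) rose as deposited. Ttn, whose kinase domain anchors Nbr1, Sqstm1 and MuRF proteins, was at 732 ± 24.4 RPKM in Ctrl and 495 ± 50.4 in icKO (-0.57 as deposited, and -1.13, called, after median-ratio scaling). Nbr1 was at 0.87 and Sqstm1 at 0.85 as deposited, and fell to 0.31 and 0.29 after median-ratio scaling. The atrogin-1 substrates Ppp3ca and Eif3f were at 0.98 and 0.07.

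**Figure D4:**
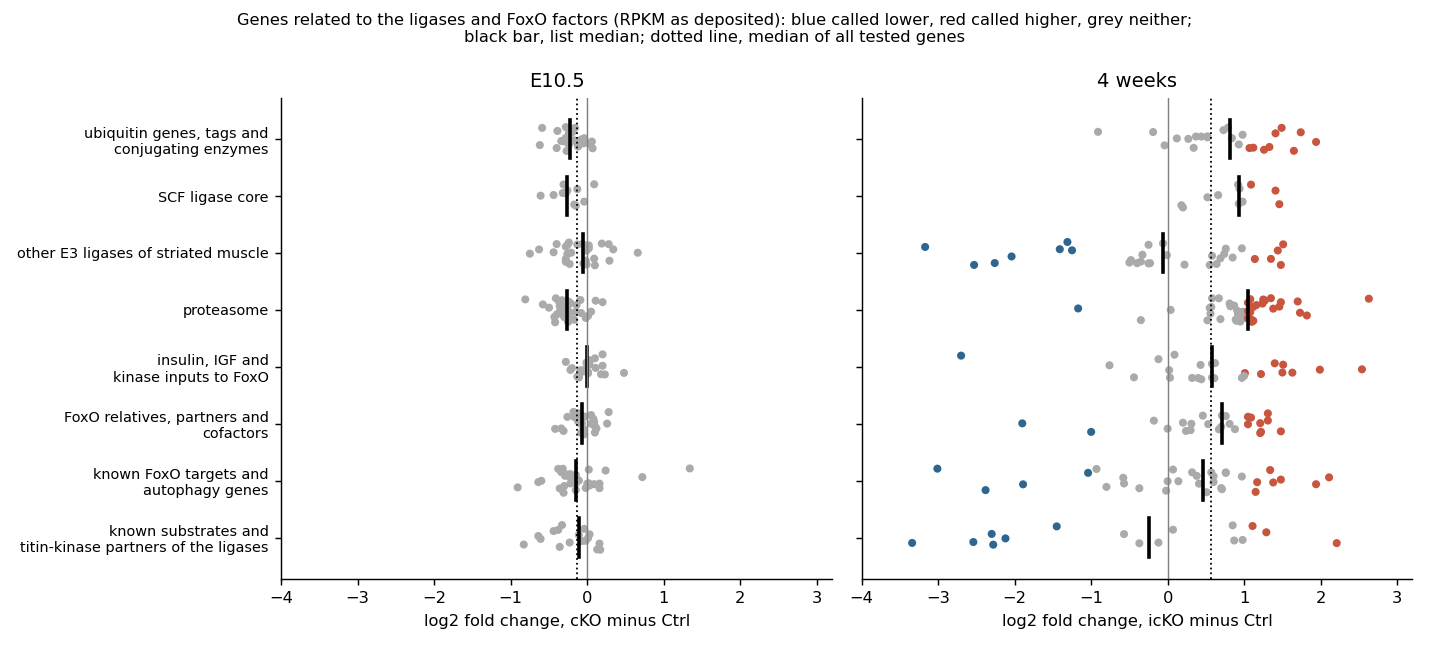
Log2 fold change of knockout against Ctrl (horizontal axes, RPKM as deposited) for genes that work with the ligases and FoxO factors, 1 point a gene, in 8 lists at E10.5 (left) and 4 weeks (right), coloured by call, with list medians as black bars and the median of all tested genes as a dotted line. At E10.5 no gene is called, and at 4 weeks the medians of the SCF core (0.93) and the proteasome (1.05) lie to the right of the all-gene median of 0.57 and those of the other muscle ligases (-0.06) and the substrates (-0.24) to its left.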

How the data were processed

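RNA was sequenced from 12 samples in 4 groups of 3, E10.5 hearts and adult cardiomyocytes. Libraries were made after ribosomal RNA removal. The submitters' processing notes name cutadapt 2.6, STAR 2.5.3a, HOMER 4.11.1, DESeq2 1.12.4 and mm10, and the gene annotation used in counting is not given in the sources used here. The deposited tables, 1 a stage, hold RPKM per sample, which the authors computed per gene, as well as their mean, log2 fold change and FDR columns, which were not used. Knockout columns of the E10.5 table are headed icKO and were taken as the cKO samples. Without read counts, DESeq2 could not be run as in the study.

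Each stage was fitted alone with limma 3.58.1 (eBayes with trend, R 4.3.3). Values were log2(RPKM + 0.1) of those genes whose mean RPKM exceeded 1, with Benjamini-Hochberg adjustment over all genes tested. Calls needed both an adjusted p below 0.05 and a log2 fold change of more than 1 in size. Fold changes are on the log2(RPKM + 0.1) scale, which understates those of low genes. The smallest two-sided p of an exact permutation test of 3 against 3 is 0.1, so none was run. The fit was tested on simulated data. The tables were normalised separately, so nothing was tested across them. Of each related list, the genes named are the 4 called genes with the largest change in each direction whose groups do not overlap, with 27 genes always named, of which 1 is not reported here. Sesn2 at E10.5 was chosen after its values were seen. The members, the lists and the tests were chosen with earlier results of these data known.

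Depth was estimated from low RPKM values as the depth at which they lie nearest to whole reads (63.3% to 71.5% of values no further than 0.1 from whole reads, where chance gives 20%). On a 2 kb transcript 3 reads are 0.075 to 0.125 RPKM, for counting error only. Positions, exons and shared 50-base stretches are from GENCODE M21 (GRCm38), and promoters from RefSeq (GRCm38.p6). Alternatives were pseudocounts of 1 and 0.01, no filter or a mean RPKM above 5, median-ratio, quantile and top-20-excluded scaling, no trend, the replicate number as a block and each sample left out.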

Additional observations from a re-analysis of the deposited data

Results flagged for a closer look

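For these genes every knockout sample lay on one side of the Ctrl mean at E10.5 and every knockout sample on the other side at 4 weeks, both as deposited and after median-ratio scaling. Among the members these were Foxo3 (log2 fold change 0.56 at E10.5 and -0.73 at 4 weeks) and Trim54 (0.74 and -0.24). The knockout and Ctrl samples of Trim54 overlapped at both stages. The differences between the stages were not tested, because the tables were normalised separately. The related genes given here are all among those named in this report, so they are no screen of all related genes. Many were named for being called at 4 weeks with groups that do not overlap. For those, the 4-week side of the rule was met as deposited by that choice. Of the named related genes, Sesn1 ran the same way as Foxo3 (0.16 and -1.89).

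The other named related genes that met the rule were below Ctrl in the embryo and above it in the adult. They were Bnip3 (-0.91 at E10.5 and 0.76 at 4 weeks), Klhl41 (-0.75 and 1.48), Gabarapl1 (-0.36 and 1.15), Sqstm1 (-0.33 and 0.85), Nbr1 (-0.23 and 0.87) and Psma5 (-0.26 and 1.73). In the SCF core they were Skp1a (-0.31 and 1.41), Cul1 (-0.26 and 0.98), Cops5 (-0.32 and 1.09) and Cand1 (-0.17 and 1.46). These differences were not tested either. As deposited, 7467 of all 10885 tested genes were below 0 at E10.5, and 6958 of 9517 were above 0 at 4 weeks. After median-ratio scaling these counts were 5599 and 4819. The share of all genes that met the rule was not computed, so nothing is read from how many genes are listed. For 9 further named related genes the sides differed as deposited alone, and for 3 after median-ratio scaling alone. With 3 samples a group, no single sample was tested for standing apart.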

How the results depend on the processing

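Of 207 values of the members' log2 fold changes under the alternatives, 180 moved by less than the spread between replicates. That count does not measure stability, because many of the alternatives could hardly move a value. The filter, trend and replicate-block settings left each fold change as it was. Leaving out a sample shifts a group mean by only part of its spread. The 27 that moved further came from the 3 other scalings, and 5 values changed sign, for Trim55 at 4 weeks (-0.48, -0.42 and -0.16 under median-ratio, quantile and top-20-excluded scaling), Foxo4 at E10.5 (0.03 under the last) and Foxo1 at E10.5 (-0.01 without cKO replicate 2). Fbxo32 at E10.5 was called in 14 of 15 alternatives (not without the RPKM filter), Trim63 at 4 weeks in 14 of 15 and Foxo4 at 4 weeks in 9 of 15. Fbxo32 at 4 weeks was called under the 3 other scalings, and Foxo1 and Foxo3 under 2 of them. All these fits reuse the samples whose differences were in view when the members were chosen. The counts of calls describe the settings and are no test of the members.

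Related genes called higher at 4 weeks, 66 as reported, were 13 under median-ratio scaling, 21 under quantile normalization and 40 without the 20 most abundant genes, and 61 to 76 with a sample left out. Related genes called lower at 4 weeks were 21, and 19 to 22 with a sample left out. At E10.5 related genes called were 0 to 1 in each direction with a sample left out. All genes called lower at E10.5 were 59, and 36 with a pseudocount of 1, 1 without a filter, 34 at a mean RPKM above 5, 39 with quantile normalization, 36 without the 20 most abundant genes, 38 without a trend and 18 to 102 with a sample left out. Those called higher were 26, and 12, 0 and 9 under the first 3 of these, 48 without the 20 most abundant genes and 9 to 36 with a sample left out. At 4 weeks all genes called lower were 804, and 454 above a mean RPKM of 5, 1511 with median-ratio scaling and 1341 with quantile normalization, and those called higher were 2668, and 1687, 1053 and 1213. The cause was not tested beyond what each alternative changes. The paper, with its own method, reports more adult genes down than up. That was the balance here with median-ratio scaling and quantile normalization. It was not the balance with the values as deposited, nor with the 20 most abundant genes left out of the scaling (1055 lower and 1851 higher).

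The deviations of same-numbered samples were at most weakly correlated (0.0124, 0.101 and -0.0698 at E10.5 and 0.153, 0.0433 and 0.0450 at 4 weeks). The labels do not say whether equal numbers mark pairs, and low correlations cannot exclude pairing. With the replicate block, 61 genes were lower and 32 higher at E10.5 and 805 and 2672 at 4 weeks, and related genes called were 0 and 0, and 21 and 66.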
